A study of Mus musculus with 10 samples.

Results

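The cytosolic ribosomal protein genes were studied in 10 mouse mammary tumors. A gene was taken as a member where its name begins with Rpl or Rps and its KEGG annotation in the deposited table lists the ribosome pathway (ko03010). This rule found 84 of 21959 genes, 33 of the small subunit (Rps) and 51 of the large subunit (Rpl). It left out 20 genes with an Rpl or Rps name and no ribosome entry, such as the S6 kinases, and 46 other genes of the pathway, of which 43 are mitochondrial ribosomal proteins (Mrp). A read was counted for 83 of the members, and 82 passed the filter on low counts.

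The tumors grew from 4T1 cells, a BALB/c mammary carcinoma line that stands in for the triple-negative form of human breast cancer, injected under the skin of the abdomen of female BALB/c mice aged 5 to 6 weeks. 5 mice had voluntary access to exercise by wheel running (E) and 5 did not (NE), and the tumors were collected after 21 days for mRNA sequencing. The question was what voluntary running changes in the tumor transcriptome. Each sample was bulk tumor tissue from a single mouse, and the sources used here do not say whether whole tumors or pieces were taken. In bulk tissue, fewer cells of a type and less RNA per cell cannot be told apart. The p-values describe the spread between these tumors.

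Ribosomal proteins are the protein part of the ribosome, which is assembled in the nucleolus from ribosomal RNA and about equal amounts of each protein before the subunits move to the cytoplasm. Their mRNAs are among the most abundant of any cell, and in mammals most carry a run of pyrimidines at the very start, the 5′ terminal oligopyrimidine (TOP) motif, through which mTORC1 and LARP1 govern their translation. Since growing cells spend much of their capacity on ribosomes, this set of genes is often read as a sign of growth, although an mRNA level does not report how strongly a TOP mRNA is translated.

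The start sites of members show what they share in sequence, which the rule did not use. The windows below hold 30 bases around the annotated start, 15 on each side, from RefSeq (GRCm38.p6), with a run of 8 or more C or T in capitals where there is such a run. Rps6, Rpl4, Rpl9, Rpl6 and Rpl26 had the smallest p-values between the groups, Rpl7a and Rps18 hold long runs, and Rpl3l is the muscle paralog.
Rps6 (chr4:86857353-86857382, minus strand): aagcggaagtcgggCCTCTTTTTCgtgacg
Rpl4 (chr9:64173372-64173401, plus strand): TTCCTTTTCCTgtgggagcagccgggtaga
Rpl9 (chr5:65391417-65391446, minus strand): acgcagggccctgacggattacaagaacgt
Rpl6 (chr5:121204486-121204515, plus strand): tggtcacctcccgtcattgcttatagaccg
Rpl26 (chr11:68901551-68901580, plus strand): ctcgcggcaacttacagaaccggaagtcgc
Rpl7a (chr2:26910792-26910821, plus strand): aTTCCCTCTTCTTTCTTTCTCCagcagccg
Rps18 (chr17:33955651-33955680, minus strand): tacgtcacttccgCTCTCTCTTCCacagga
Rpl3l (chr17:24727811-24727840, plus strand): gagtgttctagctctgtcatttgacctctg

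Start windows were found for 64 of the 84 members, 76 windows in all. A run of at least 8 C or T within 15 bases of the start was in 28 of the 76 windows (36.8%), against 11.7% of all 32851 promoter windows. Over the whole window of 300 bases, 250 before and 50 after the start, and on both strands, CCGGAAG was in 35.5% of the member windows against 8.86% of all. AAGATGGC was in 9.21% against 2.75%, GGGCGG in 59.2% against 35.7% and TATAAA in 9.21% against 13.6%. A match describes these letters in these windows, and annotated starts can lie some bases away from those used in the tumors.

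The 10 libraries held between 15045613 and 23092251 counted reads, and 702588 to 1494947 of these fell on the members. The E libraries held 15045613 to 20646763 reads and the NE libraries 18706032 to 23092251, so that the depth of the groups overlapped but was lower in E. The labelled tissue was checked against 9 markers of mammary epithelium, of which 3 passed the filter on low counts, namely Krt19 at 8.42 to 23.7 CPM (reads scaled to an equal total for each tumor), Cdh1 at 6.83 to 20.6 CPM and Epcam at 0.525 to 3.14 CPM. Among the others, the luminal keratins Krt8 and Krt18 were at 0 to 1.24 CPM and 0.0849 to 2.20 CPM. The 9 markers summed to 19.7 to 29.0 CPM in E and 25.3 to 102 CPM in NE. The 102 CPM was in NE5, where Krt14 alone was at 54.2 CPM, against at most 0.622 CPM in the other tumors. NE5 also had the highest sum of the keratinocyte list, 76.1 CPM, against at most 2.16 CPM in E. The tumor NE1 stood apart from the others. It was the lowest of the 10 tumors in 7 of 11 marker lists, with a summed level of 1268 CPM for the macrophage list (2610 to 4439 CPM in the other tumors), 966 CPM for the fibroblast list (2182 to 15382) and 6.33 CPM for the skeletal muscle list (up to 27906 CPM, in NE4). E5 had the highest fibroblast sum (15382 CPM) and the highest neutrophil sum (287 CPM).

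The members took a similar share of the reads in 9 tumors and a larger one in NE1. Of all counted reads, the members held 5.32% in E1, 4.98% in E2, 5.44% in E3, 5.06% in E4 and 4.67% in E5. In the NE tumors they held 6.47% in NE1, 5.30% in NE2, 5.17% in NE3, 4.87% in NE4 and 5.41% in NE5. The groups overlapped, with NE1 above every other tumor and E5 below every other. The mean share of the E tumors was 5.09% ± 0.302 and that of the NE tumors 5.44% ± 0.610 (SD, n = 5 per group), a difference of -0.353 percentage points, and without NE1 the NE mean was 5.19% ± 0.234 (n = 4) and the difference -0.0954. The part that the low marker sums of NE1 have in its high share was not tested.

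**Figure D1:**
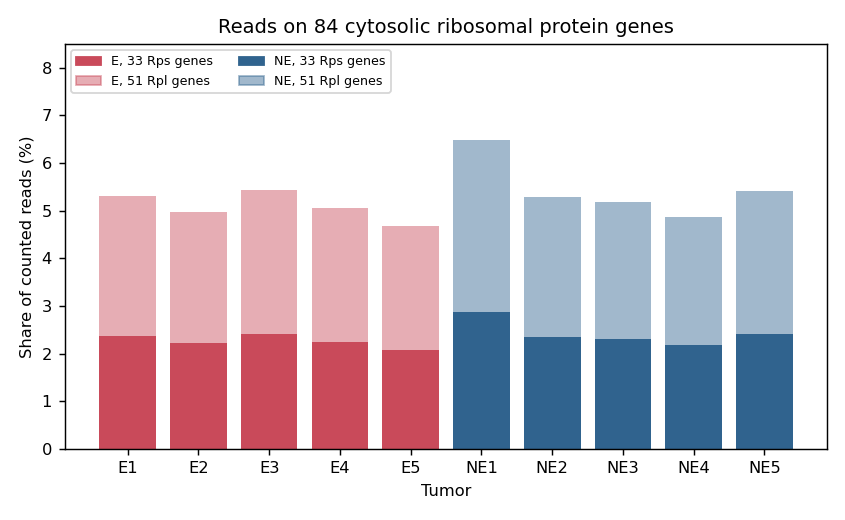
Share of the counted reads of each tumor (%) on the 84 cytosolic ribosomal protein genes, split into 33 small subunit genes (dark) and 51 large subunit genes (light), with E in red and NE in blue. NE1 reaches 6.47% and E5 4.67%, and the other 8 tumors lie between 4.87% and 5.44%.

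The balance between the subunits hardly moved. For each read on a small subunit gene, the large subunit genes held on average 1.25 reads in both groups (SD 0.0072 for E and 0.00756 for NE, n = 5 per group), and the 10 tumors ranged from 1.24 to 1.26. NE1, with its high share, lay inside this range.

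The level per length, in FPKM (reads scaled by gene length and by the total of counted reads), spread widely between members. The median member stood at 273 FPKM, against 6.40 FPKM for all genes tested, and 65 of the 84 members exceeded 100 FPKM. The small subunit genes had a median of 350 FPKM and the large subunit genes 238 FPKM. The highest was Rps3a1, a small subunit protein, at 1548 FPKM (1310 to 1790 over the tumors). It was followed by Rplp1 at 1350 FPKM (1197 to 1809) and Rplp0 at 1174 FPKM (1074 to 1495), proteins of the stalk that calls translation factors to the large subunit. The ranges of these 3 genes overlapped, although Rplp1 was above Rplp0 within every tumor. Rps2, Rps15 and Rpl41, whose ranges overlapped with each other, also had means above 1000 FPKM. The 74 members above 30 FPKM spanned a 35.8-fold range of levels. The order and spread in FPKM depend on the gene length used. For Rps15a this length was 6270 bases, equal to all its annotated exon bases in GRCm38, while its shortest coding transcript has 250. By reads, Rps2 (427920) and Rpsa (413374) exceeded Rps3a1 (307712).

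**Figure D2:**
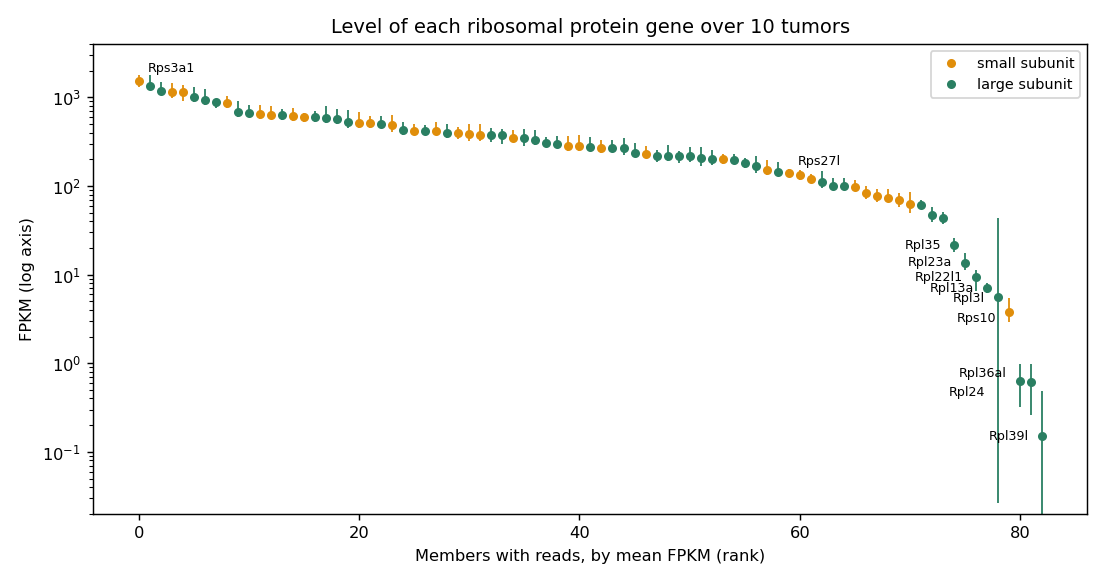
Level of the 83 members with reads in FPKM (log axis), ordered by mean; points are means over the 10 tumors and lines run from the lowest to the highest tumor. 74 members lie above 30 FPKM, and Rpl3l has by far the longest line (0.0264 to 43.0 FPKM); the line of Rpl39l runs off the lower edge because 1 tumor had no read.

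A small tail lay far below the rest. Of the 10 members under 30 FPKM, 4 are paralogs known to be restricted to some tissues or used little, namely Rpl22l1 (9.33 FPKM), Rpl3l (5.61), Rpl39l (0.149) and Rpl10l, a testis paralog with 0 reads in all 10 tumors. For Rpl10l, 3 reads would be 0.199 CPM in the shallowest library, the limit that a count of 0 allows for counting error. The other 6 were Rpl35 (21.3 FPKM), Rpl23a (13.6), Rpl13a (7.01), Rps10 (3.79), Rpl36al (0.635) and Rpl24 (0.617), and 5 of these encode proteins that every ribosome holds. Rpl24 had 128 reads over the 10 tumors where Rpl4 had 358758.

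In these low members, the annotation places other genes on the same bases. In GRCm38, 66.2% of the exon bases of Rpl35 (chr2:39001580-39005624) lie in exons of Wdr38 on the opposite strand, and 59.7% of those of Rpl23a (chr11:78180932-78183584) in exons of Tlcd1, also opposite. On the same strand, Rpl13a shared 29.4% of its exon bases with Gm45713, Rpl36al 24.5% with Gm49383 and Rps10 20.6% with a readthrough gene that joins it to Nudt3. All 3 of these overlapping genes were listed with 0 reads. Overlap with a protein-coding gene on the same strand was found for 3 of the 10 members under 30 FPKM and for 0 of the 74 above, and overlap on either strand for 5 of 10 and 11 of 74. Rpl24 had no such overlap, but 51.8% of the 50-base stretches of its transcripts occur in other genes, mostly Gm28037. Such sharing was not particular to the low members. The median member shared 23.6% of its stretches, 8 members shared over 50%, and Rps3a1, the highest member, shared 71.0%. The sources used here do not say how reads in overlapping genes were counted or whether strand was used, and the part of either in these low levels was not tested.

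Between the groups, the members differed little and mostly in one direction. The fitted log2 fold change (E against NE, edgeR with TMM) was below 0 for 81 of the 82 members tested. Of all 13517 genes tested, 54.0% were below 0. When the tumors were scaled by the summed reads of the members themselves, 29 of 82 members and 23.8% of all genes were below 0. With TMM, the median was -0.11 over the members and -0.01 over all genes, and 80 of the 82 values were smaller than 0.25 in size. Scaling by the members shifts the median of all genes by 0.12 on the log2 scale. Relative to the median of all genes, the members lay at -0.10 with TMM and at -0.09 with the scaling by members. A change of scaling moves all genes by about the same amount. The closeness of these 2 values is therefore nearly fixed in advance and adds no evidence. With TMM, the interquartile range of the members was -0.14 to -0.08, and the median SE of a member was 0.0889. All 33 small subunit members (median -0.11) and 48 of 49 large subunit members (median -0.11) were below 0.

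No member passed the test. At a false discovery rate (FDR) of at most 0.05 and a fold change of at least 2, edgeR's quasi-likelihood test called 0 of 82 members, and 0.0% of all genes. At an unadjusted p of at most 0.05, 6 members were found, all lower in E, against 4.86% of all genes in either direction and 2.29% lower in E. DESeq2 gave 8 members at this unadjusted threshold, 7 lower and 1 higher in E, against 846 of 17925 genes. It gave 0 members at an FDR of at most 0.05. The groups did not separate in any of the 82 members (0.725% of all genes). Since the members move together from tumor to tumor, as described below, their common sign is not 81 separate observations. Without NE1 the median of the members was -0.04 and 63 of 82 were below 0, against 52.0% of all genes (median -0.01). With the log2 total count of each library as a covariate the median of the members was -0.01. In that fit 49 of 82 members were below 0, against 55.6% of all genes (median -0.02).

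**Figure D3:**
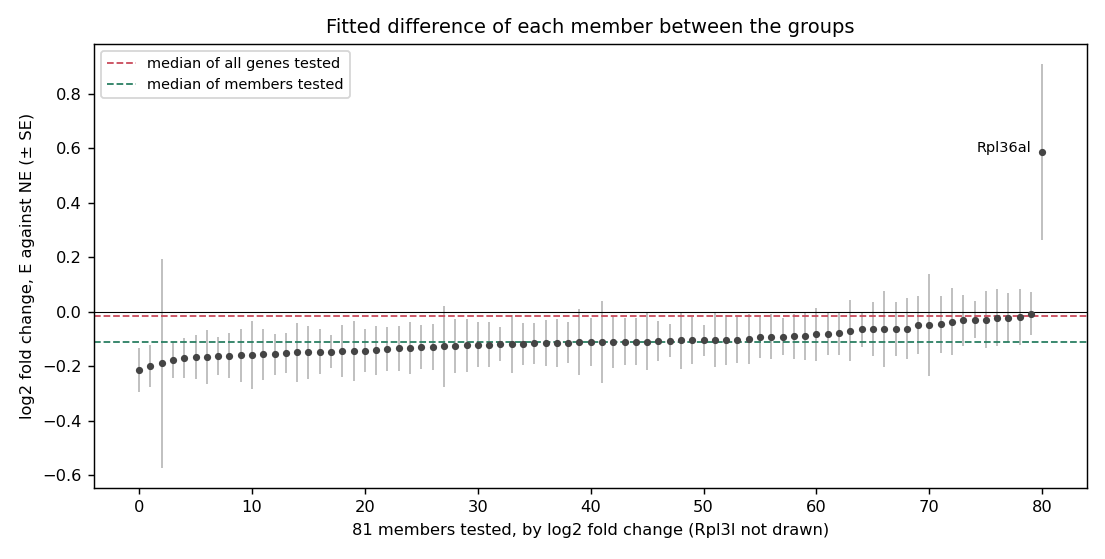
Fitted log2 fold change (E against NE) with its SE for 81 of the 82 members tested, in order, with dashed lines at the medians of all genes (-0.01) and of the members (-0.11). Rpl3l (-2.35, SE 1.49) is not drawn, and Rpl36al at 0.59 is the single member above 0 with this scaling (TMM). When scaled by the members' own reads, 53 of 82 are above 0, and 23.8% of all genes are below 0.

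The members with the smallest p were core proteins, and their values overlapped between the groups. Rpl9, a protein of the large subunit, was at 534, 485, 605, 533 and 502 CPM in E1 to E5 and at 631, 576, 601, 580 and 620 CPM in NE1 to NE5. Of the E tumors, E3 was inside the range of NE and the other 4 were below it. The log2 fold change of Rpl9 was -0.18 (SE 0.0653, unadjusted p = 0.0209, FDR = 0.897 by edgeR's quasi-likelihood test).

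Rpl26, which lies near the exit of the peptide tunnel and is also known to bind the p53 mRNA, was at 742, 784, 947, 835 and 739 CPM in E and at 992, 963, 974, 830 and 937 CPM in NE. E3 and E4 were inside the range of NE. Its log2 fold change was -0.21 (SE 0.0800, unadjusted p = 0.0223, FDR = 0.897 by edgeR).

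Rpl4, which lines the peptide tunnel, was at 1504, 1532, 1963, 1716 and 1497 CPM in E and at 1897, 1904, 1943, 1791 and 1898 CPM in NE. The highest tumor of all 10 was E3, and the other 4 E tumors lay under every NE tumor. Its log2 fold change was -0.20 (SE 0.0775, unadjusted p = 0.0265, FDR = 0.897 by edgeR).

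Rps6, the small subunit protein that the S6 kinases phosphorylate below mTORC1, was at 892, 870, 1057, 909 and 812 CPM in E and at 1037, 1016, 1021, 969 and 1037 CPM in NE. E3 was again the highest tumor and the other E tumors were lower than all NE tumors. Its log2 fold change was -0.16 (SE 0.0683, unadjusted p = 0.0376, FDR = 0.897 by edgeR). Rpl6, another protein of the large subunit, had a log2 fold change of -0.15 (SE 0.0609, unadjusted p = 0.0364, FDR = 0.897 by edgeR).

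Members with a special place in the ribosome lay near the median of the set. The stalk proteins Rplp0, Rplp1 and Rplp2 had log2 fold changes of -0.13, -0.12 and -0.07 (SE 0.0795, 0.0967 and 0.113). Rplp0 ranged from 1746 to 2035 CPM in E and from 1836 to 2432 CPM in NE. Rpl5 and Rpl11, which bind 5S RNA and, when free, hold back Mdm2, the ubiquitin ligase of p53, had log2 fold changes of -0.16 (SE 0.0965) and -0.12 (SE 0.0616). Rpl5 was at 691 to 989 CPM in E and 815 to 950 CPM in NE, and Rpl11 at 478 to 539 and 515 to 604 CPM.

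Members known for roles outside the ribosome or for human disease also overlapped between the groups. Rpsa, which is also described as a laminin receptor, was at 1808 to 2109 CPM in E and 1997 to 2513 CPM in NE (log2 fold change -0.15, SE 0.0732). Rps19, the gene most often mutated in Diamond-Blackfan anemia, was at 303 to 366 and 325 to 429 CPM (-0.10, SE 0.0862), and Rps14, lost in the 5q- syndrome, at 1129 to 1297 and 1112 to 1614 CPM (-0.06, SE 0.0997). Rps3, which also takes part in DNA repair, had a log2 fold change of -0.11, Rps27a, a ubiquitin fusion, -0.11, Rpl23, a binder of Mdm2, -0.15, Rpl38, needed for the translation of some Hox mRNAs, -0.05, and Rpl41, the shortest ribosomal protein, -0.11. None of these passed the test.

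The members moved together from tumor to tumor. NE1 was the highest tumor for 64 of the 82 members tested and E5 the lowest for 64 of 82. E3, an exercised tumor, was the highest for 9. As a description over 10 tumors, the median correlation between a pair of members was 0.766, and 58 of the 82 members had r above 0.8 with the median of the other members. The other 13435 genes had a median r of 0.029 with the median of the members. All points share their libraries, and NE1 and E5 lie at the ends for most members.

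**Figure D4:**
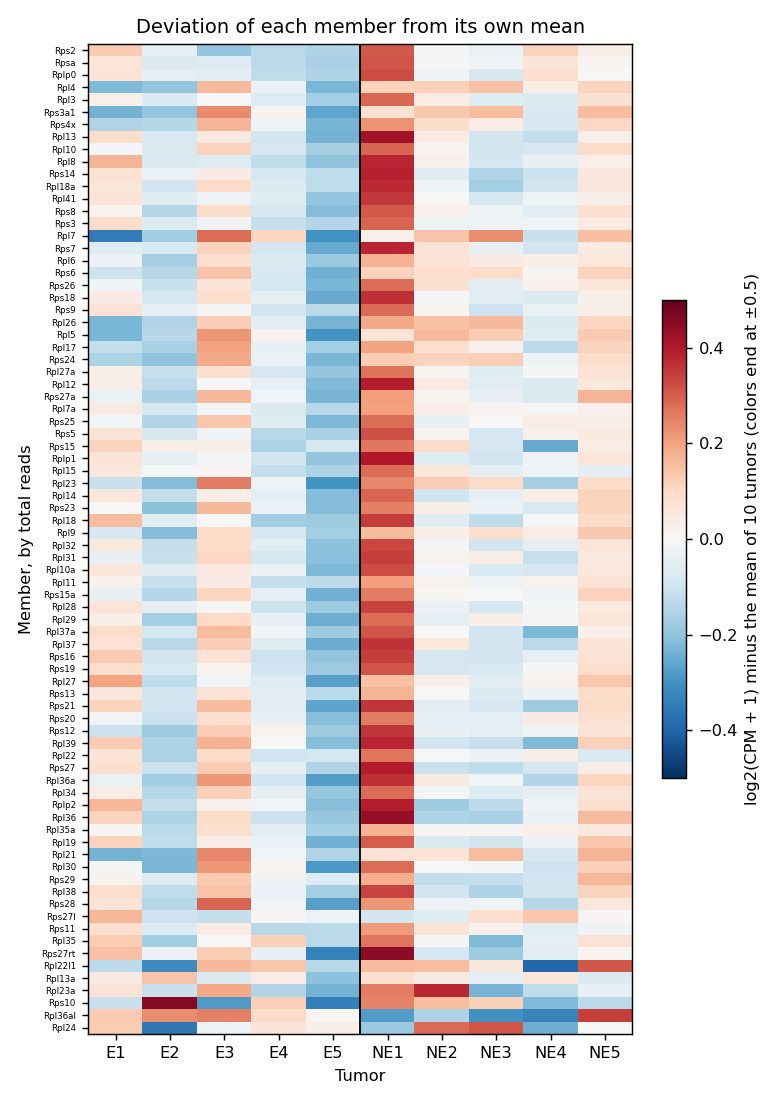
Deviation of log2(CPM + 1) of each member from its own mean over the 10 tumors, for 80 of the 82 members tested, with members ordered by total reads and the E tumors left of the line. The NE1 column is red and the E5 column blue for most members, while rows such as Rpl7, Rpl5 and Rpl21 are blue in E1 and pale in NE1.

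The least variable members were Rpl7a, Rps13 and Rpl13a, with SDs of log2(CPM + 1) of 0.0922, 0.0953 and 0.0997 over the 10 tumors, where the median member had 0.151. For 63 of the 82 members the highest tumor was less than 1.5 times the lowest, and for 79 of 82 less than 2 times. On this scale the most variable were Rpl3l (SD 1.79), Rps10 (0.259) and Rpl36al (0.251). The added 1 shrinks the spread of members near 1 CPM, and by the ratio of the highest to the lowest tumor Rpl24 (3.87) and Rpl36al (2.90) varied more than Rps10 (1.86). Rps10 was at 7.90, 12.2, 6.89, 9.44 and 6.58 CPM in E and at 10.4, 9.65, 9.44, 7.25 and 7.75 CPM in NE, so that E2 was the highest and E5 the lowest tumor, within 1 group.

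Relative to the median of the members, E1 and NE1 departed from the other 8 tumors in a pattern that crossed the groups. These 2 tumors were chosen after the values were seen, and no test is given. Set against the member median of each tumor, Rpl7 was lower in E1 and NE1 than in the other 8 tumors by a log2 difference of -0.38, Rpl21 by -0.28, Rpl5 by -0.27, Rps3a1 by -0.27 and Rpl4 by -0.24. Rplp2 was higher by 0.18, Rpl8 by 0.17 and Rpl36 by 0.17. Across 72 members with at least 20000 reads, these differences had a Pearson r of 0.52 and a Spearman rho of 0.56 with the GC content of the longest coding transcript, as a description across genes that share their libraries. The median difference was -0.0479 for the 20 members with the lowest GC content and 0.0808 for the 20 with the highest. E1 and NE1 also had the lowest shares of reads on mitochondrially encoded genes, 1.31% and 1.33%, against 1.49% to 2.83% in the other tumors. The part of GC content or RNA quality in these differences was not tested.

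Of the members, 4 did not follow the common movement, with r below 0 with the median of the others: Rpl3l (-0.43), Rpl36al (-0.25), Rps27l (-0.24) and Rpl24 (-0.02). Rpl36al had 171 reads and Rpl24 had 128 over all tumors, which limits the precision of their values. Rpl3l, Rpl36al and Rps27l are paralogs of a core gene, and each is described next with that gene.

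Rpl3l is the form of Rpl3 made in skeletal muscle and heart. Rpl3l (chr17:24727820-24736143 in GRCm38) was at 2.35, 10.1, 0.738, 1.44 and 1.04 CPM in E and at 0.0425, 1.67, 3.31, 74.4 and 0.618 CPM in NE. NE4 had 1621 reads and NE1 had 1 read, so that both ends of the range were NE tumors. The log2 fold change was -2.35 (SE 1.49, unadjusted p = 0.145, FDR = 0.897 by edgeR), and it rested on NE4: without NE4 it was 1.17. Rpl3 itself, which every cell uses, lay between 1394 and 1915 CPM.

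The level of Rpl3l had the same order over the tumors as skeletal muscle genes. The 12 genes of the muscle list summed to 6.33 CPM in NE1, 121 CPM in NE5, 293 to 3910 CPM in E and 27906 CPM in NE4, and Acta1, the actin of skeletal muscle, ran from 1.61 CPM in NE1 to 6504 CPM in NE4. Between log2(CPM + 1) of Rpl3l and of the muscle sum, Pearson's r was 0.878 (p = 0.00088) and Spearman's rho was 1 (p = 1e-05, the smallest that these permutations can give), by permutation tests with 100000 permutations over 10 tumors. Without NE1 and NE4, the tumors farthest from the median of the muscle sum, r was 0.926 over 8 tumors. This was the only relation computed across tumors with a test, and it was chosen after the values were seen.

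**Figure D5:**
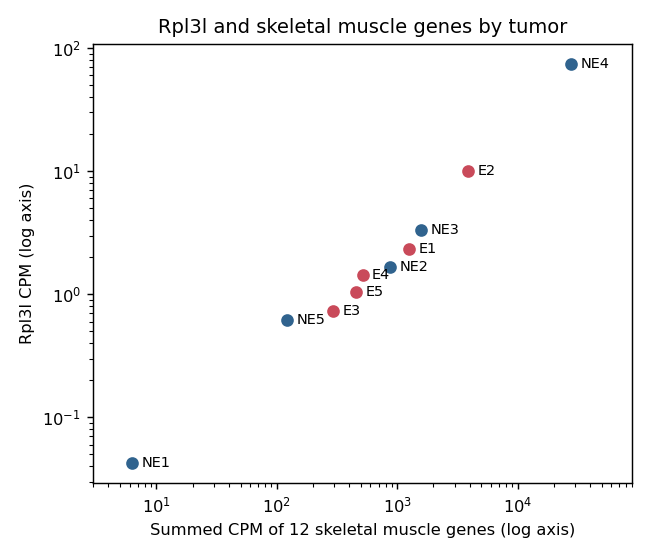
Rpl3l (CPM) against the summed CPM of 12 skeletal muscle genes in each tumor, both on log axes, with E in red and NE in blue. The 10 tumors lie on a rising line from NE1 (6.33 and 0.0425 CPM) to NE4 (27906 and 74.4 CPM), and the 5 E tumors lie between NE5 and NE4.

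Rps27l is the p53-inducible paralog of Rps27, and the coding sequences show how far the pair has drifted. The coding sequences, from GENCODE M21 (GRCm38), are both 255 bases long, and Rps27l differs from Rps27 at 61 of them (76.1% identity), marked in capitals.
Rps27 (chr3:90212522-90213651, minus strand): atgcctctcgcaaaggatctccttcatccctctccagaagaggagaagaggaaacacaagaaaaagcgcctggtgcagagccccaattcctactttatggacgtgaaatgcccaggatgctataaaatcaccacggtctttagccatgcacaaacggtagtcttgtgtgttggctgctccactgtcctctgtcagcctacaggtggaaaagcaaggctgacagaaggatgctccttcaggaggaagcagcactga
Rps27l (chr9:66946086-66949516, plus strand): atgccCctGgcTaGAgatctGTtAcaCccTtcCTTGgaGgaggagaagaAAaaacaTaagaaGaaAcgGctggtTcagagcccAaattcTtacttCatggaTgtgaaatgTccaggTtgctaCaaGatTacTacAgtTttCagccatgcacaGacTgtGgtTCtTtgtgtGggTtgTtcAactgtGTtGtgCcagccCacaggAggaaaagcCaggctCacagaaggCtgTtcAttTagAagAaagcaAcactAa

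The longest identical stretch of this alignment was 11 bases, so that any 50 bases of these coding sequences hold a difference. A further gene, Rps27rt, has a coding sequence identical to that of Rps27 in all 255 bases, and its values (18.0 to 31.6 CPM) and those of Rps27 are uncertain for this reason. Rps27l was at 127, 105, 104, 113 and 111 CPM in E and at 106, 108, 120, 124 and 113 CPM in NE. Where Rps27 was highest in NE1 (380 CPM), Rps27l there was the third lowest of the 10 tumors. In FPKM, Rps27l amounted to 50.2% ± 4.84 of Rps27 over the E tumors and 50.5% ± 9.17 over the NE tumors (SD, n = 5 per group), from 35.7% in NE1 to 58.1% in NE4. The log2 ratio of reads differed by 0.01 between the groups (exact two-sided permutation test, p = 0.944, adjusted p = 0.944 over 6 paralog ratios).

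Rpl39l, an autosomal paralog of the X-linked Rpl39 known from testis, was almost silent. The pair is shown because its coding sequences of 156 bases differ at only 23 positions (85.3% identity), in capitals.
Rpl39 (chrX:37082520-37085402, minus strand): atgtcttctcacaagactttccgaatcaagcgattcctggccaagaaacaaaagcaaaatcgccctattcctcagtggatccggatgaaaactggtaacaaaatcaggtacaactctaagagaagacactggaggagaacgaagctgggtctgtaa
Rpl39l (chr16:10170226-10174911, plus strand): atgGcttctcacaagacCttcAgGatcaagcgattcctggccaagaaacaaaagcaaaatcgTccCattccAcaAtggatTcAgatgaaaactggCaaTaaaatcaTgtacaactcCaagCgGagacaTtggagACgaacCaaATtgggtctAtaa

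Rpl39l had 3, 1, 4, 4 and 6 reads in E1 to E5 and 1, 1, 1, 0 and 2 reads in NE1 to NE5, 18 and 5 reads in all. Rpl39 had 60747 reads over the tumors and was at 255 to 333 CPM in E and 254 to 385 CPM in NE. The log2 ratio of Rpl39l to Rpl39, with 0.5 reads added to each, was higher in E by 1.69 (exact two-sided permutation test, p = 0.0159, adjusted p = 0.0952), which missed the threshold after adjustment. With so few reads the size of this difference depends on the reads added, and it was 0.72 with 5 added (exact permutation test, adjusted p = 0.0476). With 5 added to counts of 0 to 6, the ratio also follows the reads of Rpl39, and so library depth. Rpl39 had 3913 to 6780 reads in E and 5134 to 9072 in NE. At this setting the paralog and depth cannot be told apart.

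Rpl36al, an autosomal paralog of the X-linked Rpl36a, was the single member with a fitted value above 0 under TMM. It had 1.01, 1.15, 1.18, 0.960 and 0.847 CPM in E and 0.509, 0.647, 0.485, 0.459 and 1.33 CPM in NE, from 10 to 28 reads a tumor. The E tumors were above 4 of the NE tumors and below NE5. Its log2 fold change was 0.59 (SE 0.323, unadjusted p = 0.0986, FDR = 0.897 by edgeR). The log2 ratio to Rpl36a was higher in E by 0.83 (exact two-sided permutation test, p = 0.0397, adjusted p = 0.119). Rpl36al overlaps another gene on its strand, as given above, so that its count is uncertain.

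Rpl22l1, which can take the place of Rpl22 in the ribosome, was at 16.7, 14.5, 20.7, 20.3 and 16.5 CPM in E and at 20.6, 20.5, 19.1, 13.7 and 23.0 CPM in NE. In FPKM it amounted to 9.11% ± 1.21 of Rpl22 over the E tumors and 9.49% ± 2.01 over the NE tumors (SD, n = 5 per group), and the log2 ratio of reads differed by -0.04 (exact two-sided permutation test, p = 0.833, adjusted p = 0.944). For Rpl7l1, a gene outside the rule that resembles Rpl7, the log2 ratio to Rpl7 differed by 0.20 (exact permutation p = 0.278, adjusted p = 0.556), and for Rpl3l to Rpl3 by 0.26 (exact permutation p = 0.913, adjusted p = 0.944). None of the 6 ratios passed the threshold after adjustment, and 5 tumors against 5 cannot give an exact p under 0.00794.

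Most other genes of the translation machinery had values of the same direction, with list medians between -0.12 and -0.05. Of all genes tested, 54.0% were below 0. The summed CPM of each list was highest in NE1 and lowest in E5, as for most members, so that these lists are not separate observations. Of the ribosomal proteins outside the naming rule, Rack1, a scaffold on the small subunit, had a log2 fold change of -0.12 and Fau, which encodes the small subunit protein eS30, one of -0.10, and neither passed the test. Rack1 was at 1346 to 1619 CPM in E and 1467 to 2002 CPM in NE, again highest in NE1.

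Of 11 genes listed as translation elongation and termination factors, 0 passed the FDR threshold and 1, Eef1e1, had an unadjusted p of at most 0.05. The median log2 fold change was -0.12. Eef1a2 lay far from this median, at -2.05 (SE 1.46), with 342 CPM in NE4 and at most 53.3 CPM in the other tumors. It was lowest in NE1 (0.0849 CPM). NE4 and NE1 were also the highest and the lowest tumor for the skeletal muscle list, and the part of muscle tissue in Eef1a2 was not tested. Eef1a1, which brings aminoacyl-tRNA to the ribosome, was at 9293 to 11862 CPM in E and 10694 to 12414 CPM in NE (log2 fold change -0.15, SE 0.0677). Eef1e1, listed by its name but an auxiliary protein of the tRNA synthetase complex, had the smallest p of this list (log2 fold change -0.20, unadjusted p = 0.0322, FDR = 0.897 by edgeR).

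Of 14 other genes with TOP mRNAs, 0 passed the FDR threshold, 2 had an unadjusted p of at most 0.05, and the median was -0.12. Naca, a chaperone of nascent chains at the tunnel exit, was at 392, 410, 513, 445 and 407 CPM in E and at 503, 514, 520, 488 and 474 CPM in NE. As with Rpl9, E3 lay inside the range of NE and the other E tumors under it (log2 fold change -0.21, SE 0.0755, unadjusted p = 0.0207, FDR = 0.897 by edgeR). Eif2s3x, a subunit of the initiation factor that carries the initiator tRNA, had a log2 fold change of -0.13 (unadjusted p = 0.0443, FDR = 0.897 by edgeR).

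Regulators of ribosome production had the median closest to 0 of these lists. Of 23 genes of mTORC1, the S6 kinases and cap binding, 22 were tested, 0 passed the FDR threshold, 1 had an unadjusted p of at most 0.05, and the median was -0.05. Larp1, the TOP-binding protein, had a log2 fold change of -0.13 (unadjusted p = 0.0473, FDR = 0.897 by edgeR). Mtor itself had -0.01 (SE 0.0503), Rps6kb1, an S6 kinase, -0.13 (SE 0.191), and Myc, a transcription factor that drives ribosome production, -0.08 (SE 0.110), at 101 to 141 CPM in E and up to 144 CPM in NE. These are mRNA levels and do not report kinase activity.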

How the data were processed

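TruSeq RNA libraries of 10 tumors were sequenced, and Hisat2 (alignment) and Stringtie (quantification) are the tools named by the authors. The file deposited holds raw read counts and FPKM, per gene and per tumor. How the counts were made and whether strand was used are not given in the sources used here. The methods of the study name a rat assembly (Rnor) for the alignment, while the table lists mouse Ensembl identifiers, so that its build is uncertain. The deposited FPKM equalled counts divided by gene length and by the library's total (largest relative deviation 3.77e-14).

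Groups and replicate numbers came from the labels. Counts were fitted over all genes in R 4.3.3 with edgeR 4.0.16 (filterByExpr, TMM, glmQLFit and glmQLFTest, Benjamini-Hochberg adjustment, 13517 genes). Alternatives used DESeq2 1.42.0, limma 3.58.1, other scalings, filters and covariates, and each tumor left out in turn. CPM of single genes include the TMM factor, and log2 fold changes are E against NE. Paralog ratios were tested with exact permutation tests over 252 assignments in Python 3.11.15. A member's total of reads sets its precision, and limits from counts of 0 cover counting error only. The fit was tested on simulated counts, with genes drawn independently and changes larger than the median of the members. That simulation does not cover small changes or genes that move together.

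Named genes were paralogs, members with a known special role, members with the smallest p, the highest or lowest FPKM or the most or least variable values, and list genes at an unadjusted p of at most 0.05. Of these, 2 genes are not reported here. The members, lists and rules were chosen with earlier results of these data known. Rps2, Rps15, Rpl35, Rpl23a, Rpl8, Rpl21, Rpl36, Eef1a1, Eef1a2, Mtor, Rps6kb1 and Myc were named after their values were seen. Exon overlaps used GENCODE M21 (GRCm38), and coordinates were not converted.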

Additional observations from a re-analysis of the deposited data

Results flagged for a closer look

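In groups of 5 tumors, 16 of 114 sets of values had a tumor far from the other 4 by Dixon's criterion at the 95% level, where chance gives about 5.7. The sets are not independent, since the members move together. In 12 of the 16 the tumor was NE1 and its value was the highest of the NE group. This held for Rpsa (2513 CPM, the others 1997 to 2117), Rack1 (2002 CPM), Rpl41 (1491 CPM), Rps3 (1249 CPM), Rps18 (1193 CPM), Rpl6 (1088 CPM), Rplp1 (885 CPM), Rpl7a (855 CPM), Rps27 (380 CPM), Rpl22 (352 CPM), Rpl7l1 (149 CPM) and Rps27rt (31.6 CPM).

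The other 4 concerned paralogs. Rpl3l stood apart in E2 (10.1 CPM, the other E tumors 0.738 to 2.35 CPM) and in NE4 (74.4 CPM), which were also the highest tumors of their groups for the skeletal muscle list. Rpl36al stood apart in NE5 (1.33 CPM, the other NE tumors 0.459 to 0.647 CPM). The log2 ratio of Rpl36al to Rpl36a stood apart in E2 (-7.69, the other E tumors -8.05 to -8.01).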

How the results depend on the processing

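No member was called under any alternative run or with any tumor left out, with edgeR, DESeq2 or limma. The number of members at an unadjusted p of at most 0.05 was 6 and became 3 without TMM and 0 when scaled by the summed reads of the members. It was 19 with limma-voom and sample weights, and 0 with the log2 total count as a covariate. Of all 13517 genes, 657 were at this threshold in the main fit and 632, 1753, 1800 and 122 in these fits, in the same order. With 1 tumor left out the number of members ran from 0 (without E5) to 18 (without E3). It was 1 without NE1 or E2, 2 without NE2 and 3 without E4 or NE5. Of all genes, 372 of 13614 were at the threshold without E5, 772 of 13621 without E3 and 1350 of 13635 without NE1. The median log2 fold change of the members ran from -0.141 (without E3) to -0.0395 (without NE1), and was 0.0125 when scaled by the members, which holds their sum equal by construction. The share of reads on the members (E minus NE) ran from -0.497 to -0.0954 percentage points with 1 tumor left out. The causes of the other changes were not tested. A low total of reads limits Rpl24, Rpl36al and Rpl39l.

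Of 937 values of 47 named genes under the alternatives, 62 changed sign and 0 passed the FDR threshold. The log2 fold changes that turned positive without TMM were Rpl13a 0.0104 and Rps27l 0.00372. With limma-voom they were Rpl13a 0.0479, Rpl3l 0.81, Rplp2 0.00287, Rps10 0.063, Rps27 0.00261 and Rps27rt 0.0264. With the total count as a covariate they were Fau 0.00696, Rpl13a 0.0447, Rpl22 0.00584, Rpl38 0.0851, Rpl39 0.116, Rplp2 0.105, Rps13 0.00744, Rps14 0.0348, Rps18 0.0206, Rps19 0.0197, Rps27 0.0874, Rps27l 0.0133 and Rps27rt 0.146. Scaled by the members they were Fau 0.0272, Rack1 0.0154, Rpl10 0.0354, Rpl11 0.00519, Rpl13a 0.101, Rpl22 0.0458, Rpl3 0.0155, Rpl38 0.0823, Rpl39 0.0938, Rpl41 0.0154, Rpl7a 0.0198, Rplp1 0.00884, Rplp2 0.0608, Rps10 0.0862, Rps13 0.0586, Rps14 0.0706, Rps18 0.0171, Rps19 0.023, Rps27 0.082, Rps27a 0.0115, Rps27l 0.0876, Rps27rt 0.0658 and Rps3 0.0207. With 1 tumor left out, the ranges that crossed 0 were -0.0133 to 0.0793 for Rpl7l1, -0.208 to 0.0339 for Rps10, -0.0635 to 0.0273 for Rpl13a, -0.0949 to 0.0803 for Rpl39, -0.117 to 0.0752 for Rps27rt, -0.0901 to 0.0552 for Rpl38, -0.12 to 0.045 for Rplp2, -0.107 to 0.0527 for Rps14, -0.0871 to 0.0695 for Rps27, -0.339 to 0.00444 for Rpl24, -3.51 to 1.17 for Rpl3l and -0.0721 to 0.00401 for Rps27l.

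Of the paralog ratios (log2, E minus NE), Rpl3l to Rpl3 was -0.0622 with a pseudocount of 5 reads. With 1 tumor left out it ran from -0.999 to 1.64, Rpl22l1 to Rpl22 from -0.158 to 0.0537, Rps27l to Rps27 from -0.111 to 0.0711, Rpl36al to Rpl36a from 0.681 to 1.08 and Rpl39l to Rpl39 from 1.36 to 1.99. Rpl39l to Rpl39 passed the threshold with 5 reads added (0.719, exact permutation test, adjusted p = 0.0476), where the ratio also follows library depth. Without NE5, the ratios of Rpl39l (1.90) and Rpl36al (1.08) passed the threshold too.

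The study describes its tumors as matched pairs without saying what was matched, and the groups share replicate numbers in the labels, which do not say that a number marks a pair. Deviations from the group means correlated between tumors of the same number by -0.0104, -0.0109, -0.215, -0.266 and 0.323, so that the fit reported did not pair them. With the replicate block, 6 members had an unadjusted p of at most 0.05, the median was -0.109 and Rpl3l turned to 0.134, and an exact sign-flip test gave p = 0.0625 for Rpl39l to Rpl39, the smallest that 5 pairs allow.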
